A study of Mus musculus with 12 samples.

Results

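Antiviral interferon-stimulated genes (ISGs) were followed over 1 day in livers from mice that lack Cry1 and Cry2, the cryptochromes of the circadian clock (DKO for double knockout). The group holds 8 genes, taken by symbol from the 22618 genes of the count table: Ifit1, Ifit2, Ifit3, Isg15, Rsad2, Usp18, Stat2 and Irf7. All 8 were found, and all 8 passed the filter on low counts that left 17142 genes for testing. Every animal was a male Cry1/2 DKO of the C57BL/6j strain, 12-16 weeks old, conventionally raised and fed at night. Livers were taken at zeitgeber time (ZT) 2, 6, 10, 14, 18 and 22, with 2 libraries at each time and 12 in all. Night stands for ZT14, ZT18 and ZT22, and day for ZT02, ZT06 and ZT10, by the convention that lights go off at ZT12. Wild-type livers were not analysed here, and each comparison sets times of day of the DKO against each other. Separate animals are not stated for the 2 libraries of a time, so the spread between these libraries may be technical. A p-value rests on that spread. In the test of a 24 h rhythm it also rests on how far the times depart from the fitted curve.

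Interferons are secreted by cells that detect foreign nucleic acid. Type I interferon binds its receptor, the kinases JAK1 and TYK2 phosphorylate STAT2, and STAT2 joins IRF9 in a complex that binds the interferon-stimulated response element (ISRE) before antiviral genes. Their products block viral translation, assembly and release. In the liver, hepatocytes and Kupffer cells, the resident macrophages, both express such genes, and a low tonic level is found without infection.

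The ISRE is the element through which type I interferon acts on such genes, so the promoters were searched for its core, GAAA and GAAA with any 2 bases between them, on both strands. RefSeq promoter sequences (GRCm38.p6, 250 bases before to 50 after the start) were matched by symbol for 7 of the 8 genes, all but Usp18. The core was found in 5 of the 7, against 3.44% of all 32851 promoter windows of the same length and 3.99% of the 27025 genes they belong to. Ifit1 and Ifit3 each hold 2 copies, Isg15 holds 3 that overlap each other, and Rsad2 and Stat2 hold 1 each. Irf7 and Ifit2 had no match in their windows, which says only that these letters are not there. Among the other antiviral effectors listed further on, 20 of 44 genes with a promoter sequence held the core. The stretches around the matches are printed 5′ to 3′ on the gene's strand, with the core in capitals. In Ifit1, Ifit3, Rsad2 and Stat2 the core lies on the other strand, so its reverse complement is printed.
Ifit1 (chr19:34640765-34640833, + strand): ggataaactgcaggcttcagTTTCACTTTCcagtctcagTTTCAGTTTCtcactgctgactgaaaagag
Ifit3 (chr19:34583353-34583436, + strand): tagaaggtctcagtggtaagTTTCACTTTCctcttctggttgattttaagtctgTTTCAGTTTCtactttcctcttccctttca
Isg15 (chr4:156200855-156200916, - strand): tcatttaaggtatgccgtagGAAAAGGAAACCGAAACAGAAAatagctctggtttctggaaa
Rsad2 (chr12:26456543-26456592, - strand): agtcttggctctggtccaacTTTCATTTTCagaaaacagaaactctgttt
Stat2 (chr10:128270256-128270305, + strand): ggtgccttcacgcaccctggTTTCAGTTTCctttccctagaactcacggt
Counted from RefSeq's start, which for Stat2, Ifit1 and Ifit3 is not the GENCODE gene start given further on, the copy nearest to it ends at base -76 in Ifit1, -113 in Ifit3, -57 in Isg15, -111 in Rsad2 and -213 in Stat2.

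Total exon counts ran from 34715506 to 46074052 per library. Levels are given as CPM, a gene's share of its library's counts scaled to a common total and corrected for library composition (TMM). The summed level of 5 hepatocyte markers was between 68510 and 100500 CPM in the 12 libraries. Reads remained at both targeted genes, with raw counts of 202 to 544 at Cry1 and 462 to 819 at Cry2. Counts summed over a gene do not tell its exons apart, so the genotype is not checked by them. In bulk liver, fewer cells of a type and less RNA per cell cannot be told apart.

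Over the 8 genes, the median log2 level relative to each gene's own mean was 0.22 to 0.51 in the ZT18 and ZT22 libraries and -0.37 and -0.47 in those of ZT10. The highest library was a day library, ZT02 replicate 1, at 0.78, while ZT02 replicate 2 stood at -0.13. The ZT06 libraries stood at -0.32 and -0.24. The lowest library was ZT14 replicate 2, at -0.54, while ZT14 replicate 1 stood at -0.11. A 24 h cosine was called in 4 of the 8 genes, Ifit1, Ifit3, Isg15 and Stat2 (edgeR quasi-likelihood test, Benjamini-Hochberg adjusted p under 0.05), against 12.0% of all 17142 tested genes. All 8 had an unadjusted p under 0.05 in that test, as did 31.5% of all tested genes. Isg15 and Ifit1 had fitted peak-to-trough ranges above 3-fold, and the fitted peaks of the 4 called genes lay at ZT 17.6 to 22.7. These calls of Ifit1, Ifit3 and Isg15 held under all 20 alternatives tried, and that of Stat2 under 19. Leukocyte markers were set beside this time course. The 24 h test called 0 of 4 tested neutrophil and monocyte markers, against 12.0% of all genes. Of 12 T, B and NK cell markers it called 1 (8.33%). An unadjusted p under 0.05 in that test was found for 1 of the 4 and 6 of the 12, against 31.5% of all tested genes. The median fitted ranges were 1.97- and 2.11-fold, against 1.78-fold for the 8 antiviral genes and 1.31-fold for all tested genes. On the same centred log2 scale, the neutrophil and monocyte medians were -0.40 and -0.36 at ZT10 and -0.16 and -0.34 at ZT14. They were -0.01 and -0.16 at ZT18, and 0.51 in both ZT22 libraries. The T, B and NK cell medians were -0.26 and 0.265 at ZT10 and -0.88 and -0.68 at ZT14. They were -0.30 and -0.05 at ZT18, and 0.34 and 0.68 at ZT22. The summed levels of the 2 marker lists were 3.53 to 16.6 CPM and 3.14 to 10.5 CPM over the libraries. The part of these markers' cells in the time course of the antiviral genes was not tested.

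**Figure D1:**
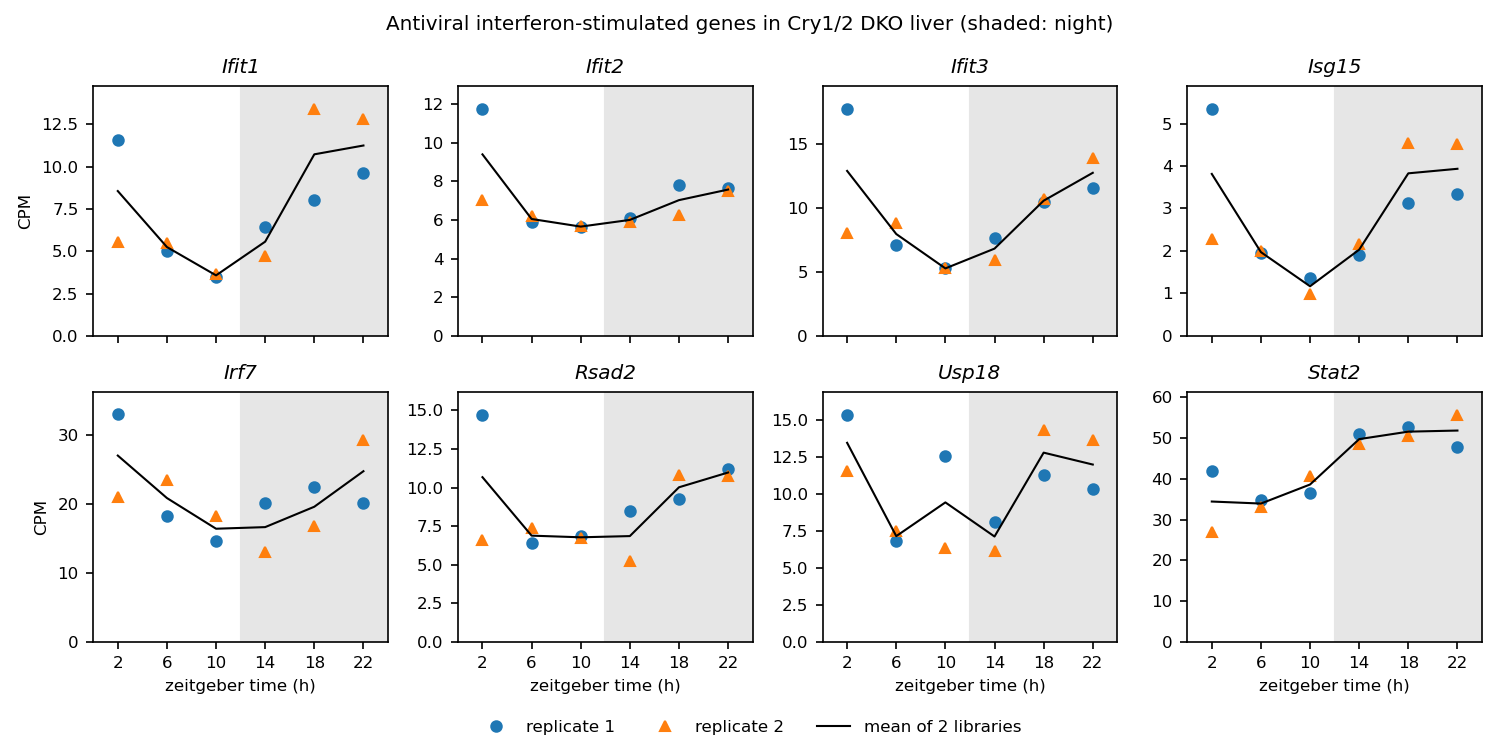
Level in CPM of the 8 antiviral genes against zeitgeber time, with 1 point for each of the 12 libraries and a line through the mean of the 2 libraries of each time. Ifit1, Ifit3 and Isg15 are lowest in the ZT10 libraries, Stat2 is at 47.9 CPM or more in all 6 night libraries, and the ZT02 replicate 1 library is the highest of 12 for 6 of the 8 genes.

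The IFIT1 protein binds viral RNA that lacks the host's cap methylation and keeps it from being translated. Ifit1 (ENSMUSG00000034459, chromosome 19, 34640871 to 34650009, mm10) was at 11.6 and 5.52 CPM in replicates 1 and 2 of ZT02, 5.02 and 5.48 at ZT06, and 3.48 and 3.66 at ZT10. In night libraries it was at 6.44 and 4.70 CPM (ZT14), 8.03 and 13.4 CPM (ZT18) and 9.66 and 12.9 CPM (ZT22). Both ZT10 libraries lay below the other 10, an order whose share among all genes was not counted. ZT18 and ZT22 overlapped each other. The fitted range was 3.17-fold (95% interval 1.94 to 4.82) with a peak at ZT 21.4 ± 0.69 h (SE), and the edgeR adjusted p was 0.0065. At night Ifit1 averaged 9.18 ± 3.48 CPM and by day 5.79 ± 2.98 CPM (SD, n = 6 each). The log2 difference of night minus day was 0.69 ± 0.19 (SE, edgeR adjusted p = 0.0495). Leaving out any 1 library but ZT02 replicate 1 ended this call of Ifit1, in 11 of 12 fits, and its highest adjusted p among the alternatives was 0.144. With the replicate number as a block its edgeR adjusted p was 0.062.

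Ifit3 lies in the same cluster on chromosome 19 (34583531 to 34588731) and its protein binds and stabilises IFIT1 in human cells. It was at 17.8 and 8.03 CPM at ZT02, 7.11 and 8.80 at ZT06, 5.26 and 5.27 at ZT10, and 7.67 and 5.96 at ZT14. At ZT18 it was at 10.4 and 10.7 CPM and at ZT22 at 11.6 and 13.9 CPM. The ZT10 libraries were again the lowest, and apart from ZT02 replicate 1 the 4 libraries of ZT18 and ZT22 were the highest. Its range was 2.51-fold (1.63 to 3.58), peaking at ZT 22.7 ± 0.76 h (edgeR adjusted p = 0.00948). Night minus day was not called in all 12 libraries (log2 difference 0.25 ± 0.17, adjusted p = 0.374). With ZT02 replicate 1 left out it was called, at 0.49 (edgeR adjusted p = 0.0233).

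Ifit2 (chromosome 19, 34550694 to 34576419), whose product can also take part in apoptosis, had the smallest fitted range of the 3 IFIT genes. It ranged from 5.64 CPM at ZT10 to 11.8 CPM in ZT02 replicate 1, and the other 11 libraries lay at or below 7.80 CPM. Its fitted range of 1.55-fold (1.13 to 2.01) did not pass (edgeR adjusted p = 0.0723). The night and day means were 6.87 ± 0.87 and 7.03 ± 2.37 CPM, and the sign of their log2 difference changed in 7 of 20 alternatives. Close relatives were counted as genes of their own: Ifit3b, listed as I830012O16Rik, at a mean of 2.71 CPM, and Ifit1bl1, listed as Gm14446, at 0.395 CPM. The sources used here do not give how reads were divided among near-identical copies, so the levels of Ifit1 and Ifit3 are uncertain to that extent.

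Isg15 encodes a ubiquitin-like protein that is attached to newly made proteins during an interferon response. It lies on chromosome 4 (156199424 to 156200818) and had the lowest counts of the 8, from 42 to 233 per library. Its level was 5.35 and 2.28 CPM at ZT02, 1.95 and 2.00 at ZT06, 1.35 and 0.980 at ZT10, and 1.91 and 2.15 at ZT14. It was at 3.12 and 4.53 CPM at ZT18 and 3.35 and 4.52 at ZT22. All 4 libraries of ZT18 and ZT22 exceeded all libraries of ZT06, ZT10 and ZT14, and ZT02 replicate 1 was above them all. The share of all genes with this order was not counted. Isg15 had the largest fitted range of the 8, 3.42-fold (1.98 to 5.39), with a peak at ZT 21.8 ± 0.72 h (edgeR adjusted p = 0.0101). The night level was 3.26 ± 1.12 CPM and the day level 2.32 ± 1.56 CPM (log2 difference 0.60 ± 0.21, edgeR adjusted p = 0.101). With ZT02 replicate 1 left out the difference was 0.85 and was called (adjusted p = 0.0149).

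Usp18 encodes the protease that removes ISG15 from proteins and also damps signalling at the interferon receptor. It ranged from 6.14 CPM in ZT14 replicate 2 to 15.4 CPM in ZT02 replicate 1. Its ZT10 libraries stood apart from each other, at 12.5 and 6.30 CPM. The 24 h test did not pass (1.74-fold, edgeR adjusted p = 0.143). Without ZT10 replicate 1 it passed, with a range of 2.36-fold (adjusted p = 0.0122). A noncoding gene on the opposite strand shares 124 exon bases with Usp18 in the annotation, and the strand setting of the counting was not given.

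Rsad2 encodes viperin, a radical SAM enzyme that makes a chain-terminating nucleotide. It lies on chromosome 12 (26442746 to 26456452) and ran from 5.25 CPM in ZT14 replicate 2 to 14.7 CPM in ZT02 replicate 1, and its partner at ZT02 was at 6.60 CPM. At ZT22 it was at 11.2 and 10.8 CPM, above all libraries of ZT06, ZT10 and ZT14. How many of all genes had this order was not counted. The 24 h range of 1.82-fold (1.16 to 2.73) did not pass in edgeR (adjusted p = 0.0654), and it passed without ZT02 replicate 2 (adjusted p = 0.0333) and in DESeq2 (adjusted p = 0.0148).

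The transcription factors Stat2 and Irf7 are described in turn, and the difference between them was not tested. Stat2 (chromosome 10, 128270559 to 128292849) was at 42.0 and 26.9 CPM at ZT02, 34.8 and 33.1 at ZT06, and 36.6 and 40.6 at ZT10. In night libraries it stood at 51.1 and 48.5 CPM (ZT14), 52.7 and 50.5 CPM (ZT18) and 47.9 and 55.8 CPM (ZT22). Every night library was above every day library, an order whose share among all genes was not counted. Stat2 rose to 51.1 ± 2.91 CPM at night, against 35.7 ± 5.48 CPM by day (SD, n = 6 each). It was called higher at night, as were 4.80% of all tested genes (log2 difference 0.52, SE 0.10, edgeR adjusted p = 0.0117). That call held in all 20 alternatives. Its fitted peak was at ZT 17.6 ± 0.81 h, ahead of the other 7, whose peaks lay from ZT 21.4 across ZT 24 to ZT 0.529, with a range of 1.65-fold (1.30 to 2.13, edgeR adjusted p = 0.0167). The difference in peak time between genes was not tested.

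Unlike Stat2, Irf7, which amplifies interferon production once it has been induced, was not called between night and day. It ranged from 13.1 CPM in ZT14 replicate 2 to 33.0 CPM in ZT02 replicate 1, and ZT22 replicate 2 was next at 29.4 CPM. Its range was 1.69-fold (1.15 to 2.43) with a peak at ZT 0.529 ± 1.22 h and it did not pass in edgeR (adjusted p = 0.0602); in DESeq2 it did (adjusted p = 0.0135). Night and day levels were 20.4 ± 5.51 and 21.5 ± 6.42 CPM (edgeR adjusted p = 0.829). Irf7 (chromosome 7, 141262706 to 141266481) shares 45 exon bases with Phrf1 on the opposite strand.

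**Figure D2:**
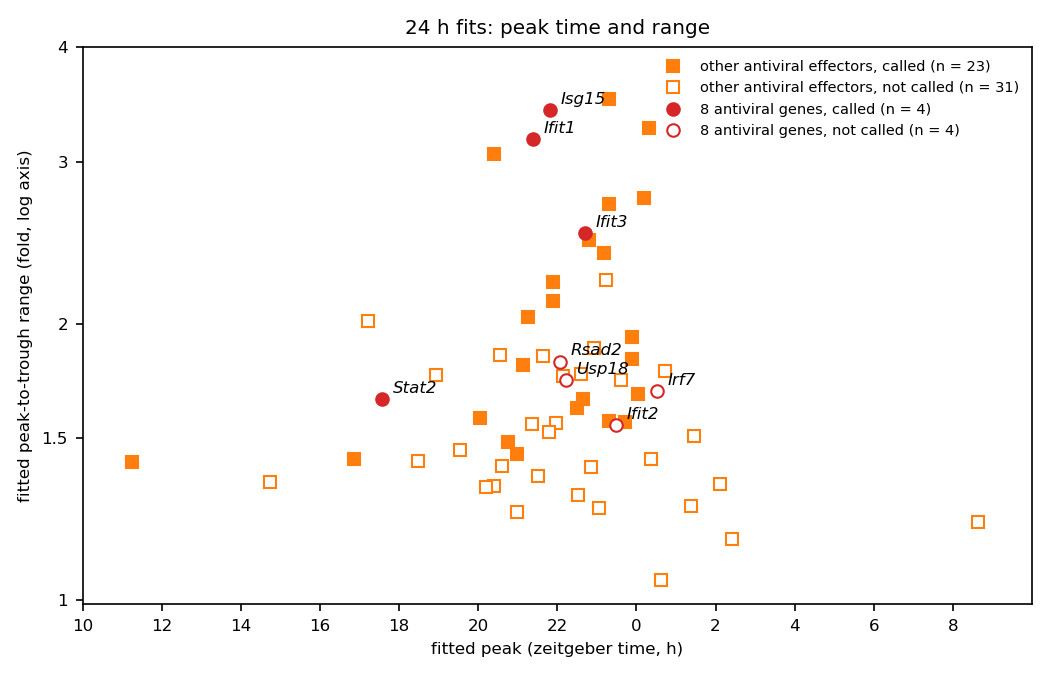
Fitted peak-to-trough range (log axis) against fitted peak time for the 8 antiviral genes and 54 other antiviral effectors, with filled symbols for genes called in the 24 h test. Ifit1, Ifit3 and Isg15 lie at ZT 21.4 to 22.7 with ranges of 2.51- to 3.42-fold, and Stat2 lies apart at ZT 17.6.

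Per kilobase of annotated exon, the mean level of the 12 libraries was highest for Stat2, at 7.32 ± 1.53 CPM per kb (SD, n = 12). Irf7 and Ifit3 followed, at 5.54 ± 1.52 and 5.37 ± 2.14 CPM per kb. Usp18 (3.70 ± 1.18), Isg15 (3.69 ± 1.83), Ifit1 (2.82 ± 1.34), Rsad2 (2.01 ± 0.632) and Ifit2 (1.77 ± 0.434) were lower in CPM per kb. Stat2 and Irf7 differed by more than the SD of either, and the other neighbours in this order by less than the larger of their SDs.

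Night, when the mice fed, was compared with day. The difference of night minus day was called in 2 of the 8 genes, Stat2 and Ifit1, both higher at night, and none was called lower, against 9.70% of all genes in either direction and 4.89% lower. The median log2 difference was 0.23 over the 8 and 0.01 over all tested genes. Without ZT02 replicate 1, the count was 4 of 8, Ifit1, Ifit3, Isg15 and Stat2, while 8.61% of all genes were called. In each of the other 11 fits without 1 library, only Stat2 was called. A test of any difference among the 6 times, with no shape assumed, called 0 of the 8 in edgeR, against 4.82% of all genes; 6 had an unadjusted p under 0.05, as did 24.8% of all genes. For the same test limma-voom called 0, and DESeq2 called 5, against 14.5% of all genes. Leaving out ZT02 replicate 1, edgeR called 4 of the 8 and 3.58% of all genes; leaving out ZT02 replicate 2, it called 4 and 2.86%; and leaving out ZT10 replicate 1, it called Usp18 and 3.91%.

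**Figure D3:**
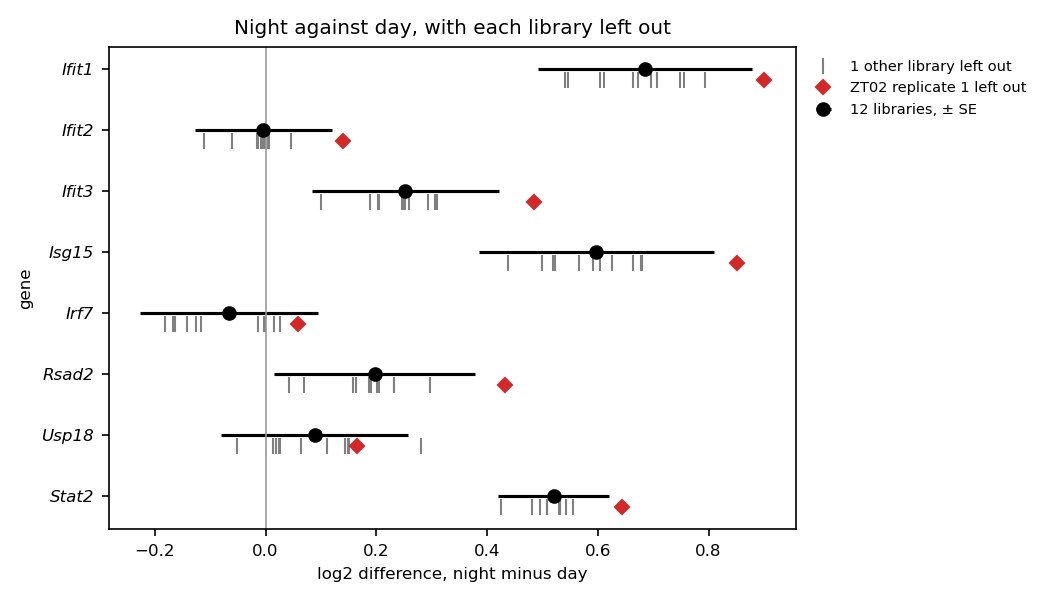
Log2 difference of night minus day for each of the 8 genes: circles with bars are the fit of 12 libraries ± SE, vertical ticks are fits without 1 other library, and diamonds the fit without ZT02 replicate 1. Stat2 stays at 0.42 or above in every fit, and the diamonds of Ifit1, Ifit3, Isg15 and Rsad2 lie to the right of all their ticks.

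Time points were also set side by side without a fitted shape. Both ZT22 libraries were above both ZT10 libraries in 7 of the 8 genes, all but Usp18, where 24.1% of all tested genes had this order. Both ZT18 libraries were above both ZT10 libraries in 6 of 8, all but Irf7 and Usp18, against 27.5% of all genes. Both ZT18 libraries were above both ZT06 libraries in 7 of 8, all but Irf7, against 25.3% of all genes. Both ZT22 libraries also exceeded both ZT14 libraries in 6 of 8, all but Irf7 and Stat2, against 21.2%. These 4 comparisons do not use the ZT02 libraries.

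The ZT02 libraries disagreed. ZT02 replicate 1 was the highest of the 12 libraries for 6 of the 8 genes, all but Ifit1 and Stat2, where 7.46% of all tested genes had their highest value in that library. It exceeded ZT02 replicate 2 by 1.33-fold for Usp18 to 2.35-fold for Isg15. The median centred log2 level of the 8 genes was 0.78 in ZT02 replicate 1 and -0.13 in ZT02 replicate 2, and it was 0.51 in ZT22 replicate 2, the next highest. Markers of other cells moved with it: all 7 Kupffer cell markers were highest in ZT02 replicate 1, at a sum of 451 CPM against 244 to 395 CPM in the other libraries, and so were 4 of 5 erythroid markers (377 CPM against 117 to 326). The T, B and NK cell markers summed to 9.35 CPM there and to 3.14 to 10.5 CPM elsewhere, and neutrophil and monocyte markers to 6.48 CPM there against 3.53 to 16.6. Plasmacytoid dendritic cell markers were at 0.562 to 1.49 CPM in all libraries, highest in ZT02 replicate 1, with 1 of the 5 at 0 there. The hepatocyte sum was also highest in ZT02 replicate 1, at 100500 CPM against at most 81420 CPM elsewhere. Only 1 of the 5 hepatocyte markers was itself highest there, and their median centred log2 level was -0.03. The sinusoidal endothelium sum was 401 CPM in ZT02 replicate 1 and 348 to 478 CPM elsewhere. The part of these cells in the level of the antiviral genes was not tested. Without ZT02 replicate 1 the 24 h test still called Ifit1, Ifit3, Isg15 and Stat2, with 7.05% of all genes called.

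**Figure D4:**
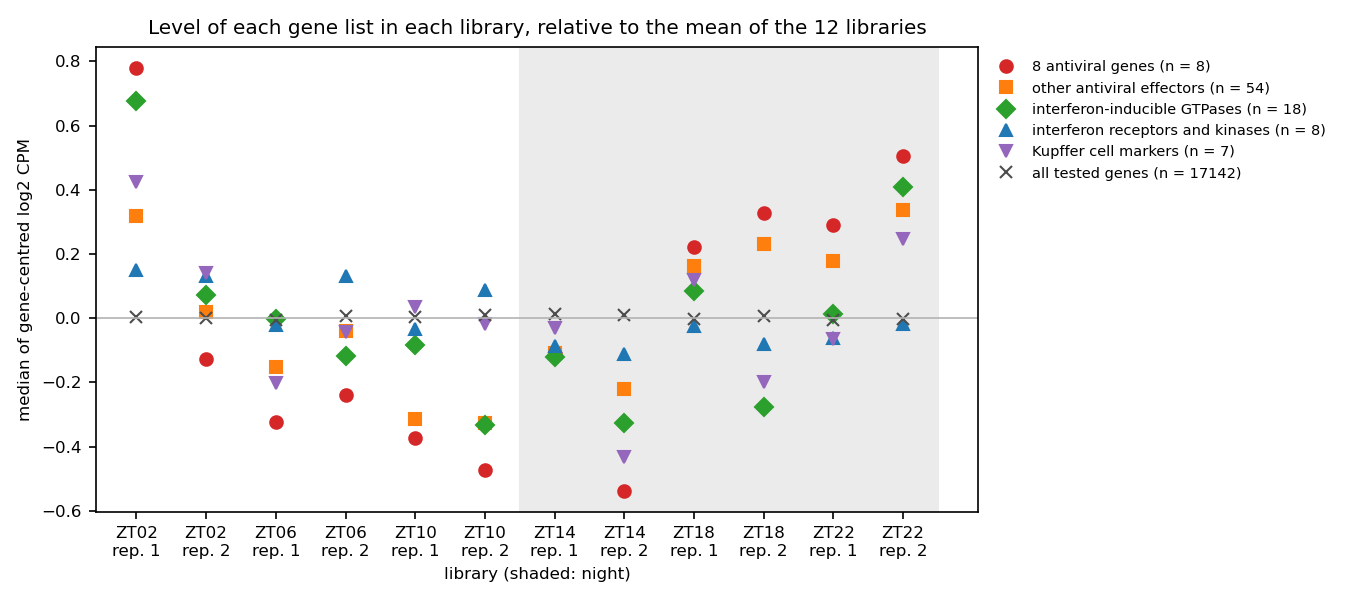
Median over each gene list of log2 CPM centred on the gene's mean of 12 libraries, for each library. The 8 antiviral genes stand at 0.78 in ZT02 replicate 1 and at 0.22 to 0.51 in the ZT18 and ZT22 libraries, and all tested genes stay near 0.

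The rest of the interferon pathway was counted by role, leaving out the 8 genes. Of 61 symbols of other antiviral effectors, 54 were in the table and tested, and 23 (42.6%) passed the 24 h test, against 12.0% of all genes; 18 of these 23 had a fitted peak between ZT18 and ZT24, a span that held 16.4% of the 2051 called genes. Without ZT02 replicate 1 the count was 16, and it was lowest, at 15, without ZT10 replicate 2 or ZT22 replicate 2. Rnf213, a giant ubiquitin ligase that acts on intracellular pathogens, averaged 256 ± 51.2 CPM at night and 196 ± 35.2 CPM by day (24 h range 1.80-fold, edgeR adjusted p = 0.00368). Zbp1, a sensor of Z-form nucleic acid, ranged 3.51-fold (adjusted p = 0.00452). The helicase gene Ddx60 ranged 3.26-fold (adjusted p = 0.00456), and Xaf1, whose product antagonises the apoptosis inhibitor XIAP, 2.70-fold (adjusted p = 0.00425). Apol9a and Lgals3bp ranged 1.93- and 1.66-fold (adjusted p = 0.00382 and 0.00378). The 24 h calls of these 6 held in all 12 fits without 1 library. Night minus day called 5 of the 54 higher (Ifi35, Oasl1, Parp14, Znfx1 and Rnf213) and none lower, against 4.80% of all genes higher and 4.89% lower. Without ZT02 replicate 1, 9 were called, with 8.61% of all genes.

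The enzymes that attach ISG15 include the activating enzyme Uba7, the conjugating enzyme Ube2l6 and the ligases Herc6 and Trim25. All 4 passed the 24 h test, against 12.0% of all genes. Uba7 and Herc6, with ranges of 1.74- and 2.14-fold (edgeR adjusted p = 0.00828 and 0.00831), peaked at ZT 0.308 and ZT 23.9, and their calls held in all 12 fits without 1 library. Ube2l6 peaked at ZT 23.9 with 1.76-fold (adjusted p = 0.0253); its call was lost without ZT02 replicate 1, ZT10 replicate 2 or ZT14 replicate 1. Trim25 peaked at ZT 11.2 with 1.41-fold (adjusted p = 0.0297). In 7 of the 12 fits without 1 library Trim25 was no longer called: both ZT02 libraries, both ZT14 libraries, ZT10 replicate 2, ZT18 replicate 1 and ZT22 replicate 1 (highest adjusted p of the alternatives 0.0741). Trim25 is also counted among the other effectors.

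Only 2 interferon ligands could be read, and both were at the floor. Of 21 interferon ligand symbols, Ifng and Ifnk were in the table, at 0 to 4 counts per library, and neither was tested. The other 19 symbols, Ifnb1 among them, had no row there, so the levels of those ligands are not known here. A count of 0 allows up to 0.0687 to 0.0854 CPM, depending on the library, for counting error only. No receptor or kinase of 8 tested passed the 24 h test in edgeR, and 2 had an unadjusted p under 0.05, where 31.5% of all genes had one. The kinase Jak1 averaged 126 ± 3.77 CPM at night and 130 ± 6.01 CPM by day (24 h range 1.04-fold, adjusted p = 0.859). Ifnar2, a chain of the type I receptor, averaged 52.5 ± 2.85 CPM at night and 60.0 ± 2.97 CPM by day (1.18-fold, adjusted p = 0.168). Jak2, outside the naming rule, was the only one of these 8 called between night and day. It was lower at night, as were 4.89% of all genes. The log2 difference of night minus day was above 0 in 0 of the 8, against 8785 of all 17142 tested genes, with a median of -0.17. In the same edgeR test 5 of the 8 had an unadjusted p under 0.05, against 4563 of all tested genes.

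The 6 other STAT and IRF factors that were tested and reported were all IRF genes. Of these 6, 1 (16.7%) passed the 24 h test, against 12.0% of all genes, so the share is near the background. It was Irf9, whose product joins STAT2 in the complex that binds the ISRE. Irf9 averaged 32.9 ± 7.60 CPM at night and 27.4 ± 3.44 CPM by day, with a range of 1.60-fold and a peak at ZT 21.4 (edgeR adjusted p = 0.0179). It was not called between night and day (adjusted p = 0.0836).

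Sensors and adaptors detect viral RNA and DNA and pass the signal on to interferon genes. Of 14 tested, 5 (35.7%) passed the 24 h test, against 12.0% of all genes. Night minus day called 5, each with the higher level at night, against 4.80% of all genes called higher. Ddx58, which encodes the RNA sensor RIG-I, rose to 35.9 ± 6.45 CPM at night, against 28.0 ± 6.74 CPM by day (log2 difference 0.37, edgeR adjusted p = 0.0156; lost without ZT18 replicate 2). The adaptor gene Traf3 rose to 21.8 ± 3.15 CPM at night, against 14.9 ± 0.66 CPM by day (log2 difference 0.54, adjusted p = 0.00155), and this call held in all 12 fits without 1 library. Dhx58, a RIG-I relative, had a 24 h range of 2.56-fold (adjusted p = 0.00519). Ifih1, which encodes the sensor MDA5, peaked at ZT 23.8 with a range of 1.91-fold (adjusted p = 0.00696).

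Inhibitors of the pathway, antigen presentation genes and GTPases were counted in the same way. Of 8 inhibitors, the phosphatase gene Ptpn6 passed the 24 h test (1.41-fold, edgeR adjusted p = 0.0262), a call lost in 4 fits without 1 library, which was replicate 1 of ZT02 or replicate 2 of ZT10, ZT14 or ZT22. That share, 12.5%, is near the 12.0% of all genes. None of 11 antigen presentation genes passed it in edgeR, and 4 had an unadjusted p under 0.05, near the share of 31.5% of all genes. The most abundant of the 11 were B2m and H2-K1. B2m averaged 1133 ± 50.6 CPM at night and 1204 ± 96.0 CPM by day. H2-K1 averaged 962 ± 42.1 CPM at night and 978 ± 61.7 CPM by day. Night minus day called 1 of the 11, Tap1, outside the naming rule (log2 difference 0.42, edgeR adjusted p = 0.0335). It was higher at night, as were 4.80% of all genes. The log2 difference was above 0 in 8 of the 11, against 8785 of all 17142 tested genes. Among 18 interferon-inducible GTPases, 6 (33.3%) passed, against 12.0% of all genes, 3 of them peaking at ZT0 to 6 and 3 at ZT18 to 24. Gbp10 ranged 5.79-fold (adjusted p = 0.00456), Gbp6 3.24-fold (0.0162), Ifi47 2.14-fold (0.013) and Irgm1 1.76-fold (0.0221; lost without ZT06 replicate 2 or ZT18 replicate 2). ZT02 replicate 1 was the highest library for 11 of the 18.

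Genes outside all lists were ranked by how closely they followed the mean z-score of the 8 genes over the 12 libraries. Only genes with a plain symbol were ranked, and symbols such as those with Rik or with Gm and a number were left out. Among the 11397 such genes of at least 1 CPM, the 8 most alike were Apof, Klhdc4, Csf2rb, Paqr9, Pilra, Afp, Ehd4 and Cd52. Their Pearson r was 0.87 to 0.92 and their Spearman rho 0.78 to 0.94. Without ZT02 replicate 1, r was 0.84 to 0.93. They were chosen for this likeness, so no test is given. Apof, which encodes apolipoprotein F, was the most alike (r = 0.92, mean 418 CPM) and ends 406 bases before Stat2 on the same strand of chromosome 10. Apof had its highest level in ZT02 replicate 1 and Stat2 in ZT22 replicate 2. Csf2rb, Pilra and Cd52 encode leukocyte surface proteins and averaged 6.24, 4.46 and 5.2 CPM. Apof and Paqr9 were far more abundant, at 418 and 193 CPM. The cells behind the 8 profiles were not tested.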

How the data were processed

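Total RNA of liver was depleted of rRNA and made into stranded libraries that were read from both ends, per the labels' protocols. The deposited values are raw counts over the exons of 22618 genes in 12 libraries, with no normalization. The submitters' processing notes name STAR 2.4.0i and mm10. The counting step, its annotation and strand setting: not given in the sources used here. Positions and exon lengths came from GENCODE M21 (GRCm38), which matched 22054 gene IDs.

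Counts were fitted in R 4.3.3 by edgeR 4.0.16, with TMM factors and with genes kept by filterByExpr on the 6 times (minimum count 10, minimum total 15), glmQLFit and glmQLFTest, with Benjamini-Hochberg adjustment over all 17142 tested genes and a threshold of 0.05. Tests were of 24 h cosine and sine terms, of any difference among 6 times, and of night minus day in the 6-time fit. The SE of a difference is its size over the root of F. Intervals of ranges, and peak times, come from least squares on log2 CPM with a prior count of 2 (9 residual degrees of freedom). The 2 libraries of each time were not the same library deposited again: chi-square over its degrees of freedom was 15.5 to 92.2. Alternatives were RLE factors, total counts only, no filter, DESeq2 1.42.0, limma-voom (limma 3.58.1), a replicate block, each library left out, and 2 pairs of ZT02 and ZT06 libraries left out. The members and lists were chosen with earlier results of these data known. Named genes are the 8, up to 4 called genes of each list with the smallest 24 h adjusted p (up to 6 for the other effectors) or its 2 most abundant where none was called, and the 8 most alike genes. A gene of the STAT and IRF list is not reported here.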

Additional observations from a re-analysis of the deposited data

Results flagged for a closer look

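ZT02 replicate 1 stood far above the other 5 day libraries for Ifit1, Ifit2, Ifit3, Isg15 and Rsad2. Its gap to the nearest day library, as a share of the range of the 6 day libraries, was 0.749 for Ifit1, 0.773 for Ifit2, 0.717 for Ifit3, 0.703 for Isg15 and 0.884 for Rsad2, above Dixon's 95% critical value for 6 libraries. The same library stood apart for Irgm1 (0.628). Among the 6 night libraries, ZT22 replicate 2 stood apart for Zbp1 (0.631) and Gbp10 (0.73). Day and night libraries each span 3 times of day, so they are not replicates of 1 condition, and chance flags about 1 in 20 groups.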

How the results depend on the processing

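The 24 h test kept its call of Ifit1, Ifit3 and Isg15 in all 20 alternatives, and lost that of Stat2 without ZT02 replicate 1 and ZT06 replicate 2 together (adjusted p = 0.0539). In the same test 4 to 5 of the 8 genes were called without 1 library, and DESeq2 called 7 of the 8 and 3343 of all genes. The 23 other effectors called were 15 to 23 without 1 library and 13 without ZT02 replicate 1 and ZT06 replicate 2. All-gene counts of the 24 h test were 1201 (without ZT14 replicate 2) to 2225 (without ZT10 replicate 1) without 1 library, 568 without the pair named above, and 1276 without ZT02 replicate 2 and ZT06 replicate 1.

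For any difference among times, 0 to 4 of the 8 were called without 1 library, 1 with total counts only, 2 with no filter, 5 in DESeq2, 3 without ZT02 replicate 2 and ZT06 replicate 1, and 4 without ZT02 replicate 1 and ZT06 replicate 2. The 13 other effectors called were 3 (without either ZT18 library) to 10 without 1 library, 23 in DESeq2 and 8 with the replicate block. All-gene counts were 174 (without ZT18 replicate 1) to 897 (without ZT10 replicate 2) without 1 library, against 826, and 2484 in DESeq2.

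For night minus day, 1 to 4 of the 8 were called without 1 library, 1 in limma-voom, 1 without ZT02 replicate 2 and ZT06 replicate 1, and 4 without ZT02 replicate 1 and ZT06 replicate 2. Other effectors called were 4 to 9 without 1 library, 9 with total counts only, 10 in DESeq2 and 3 without ZT02 replicate 2 and ZT06 replicate 1. All-gene counts were 611 (without ZT18 replicate 1) to 1818 (without ZT14 replicate 2) without 1 library, and 865 and 1107 without the 2 pairs. Total counts only split the calls into 1077 higher and 624 lower at night, against 823 and 839. The cause of these changes was not tested.

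The replicate block called 1 of the 8, Stat2, for night minus day, and changed no other call of the 8. The numbers did not pair the samples across all times: the replicate differences of 2 time points correlated above 0.1 in 5 of 15 pairs (r from -0.22 to 0.50). The highest r, 0.50, was that of ZT02 and ZT06, and the next, 0.26, was that of ZT14 and ZT18. Leaving out a library leaves its time with 1 library, assumed to vary like the others. Isg15, at 42 to 233 counts, had the least depth of the 8.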
